A study of Homo sapiens with 6 samples.

Results

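Mitotic kinesins are motor proteins that use ATP to walk along spindle microtubules or to take their ends apart. They push the spindle poles apart, bring chromosomes to the spindle equator and build the central spindle, where the cleavage furrow forms. Their genes are transcribed mainly in late S, G2 and M phase, so their messages are abundant in dividing cell populations. The 10 genes described here were chosen by name, as the rows KIF11, KIF14, KIF15, KIF18A, KIF18B, KIF20A, KIF20B, KIF23, KIF2C and KIF4A of a table of 34738 genes. Each name was found once, and all 10 passed the filter on low values (a mean of at least 1 FPKM over the libraries), as did 11867 genes in all.

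RNA-seq was performed on cultured human thyroid cancer cells. One group was transfected with an siRNA against GDF15, a stress-responsive cytokine of the TGF-β family, and is called siGDF15. The other was the control group NC, and each group had 3 libraries described as biological replicates. The labels give the line as KHM-5M, an established thyroid carcinoma line, for all 6 libraries, while a legend of the study names TPC-1, another thyroid carcinoma line. The labels call the controls a blank control and the study's methods call them negative control cells and list a negative control siRNA, while a figure legend speaks of vector control cells. Which of these the NC libraries received is not settled by these sources. If NC had no siRNA, the effect of GDF15 knockdown and that of transfection cannot be told apart. The study lists 1 siRNA sequence against GDF15. With either control, effects of that sequence on other genes cannot be told apart from those of GDF15 knockdown. The thyroid transcription factor gene PAX8 was expressed at 54.3 to 64.9 FPKM in NC and at 77.5 to 80.4 FPKM in siGDF15. TG, NKX2-1 and SLC5A5, which also define thyroid cells, were each at or below 0.219 FPKM in every library. Of 6 thyroid markers in the table, 2 (PAX8 and FOXE1) reached 1 FPKM, and the markers summed to 56.9 to 67.9 FPKM in NC and 80.3 to 83.6 FPKM in siGDF15. All 4 epithelial markers reached 1 FPKM, while 0 of 3 leukocyte markers (sums of 0.107 to 0.256 FPKM in NC and 0.607 to 0.739 FPKM in siGDF15) and 0 of 3 endothelial markers did. The part of these differences in the results was not tested.

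Total counts were between 51738814 and 68025163, lowest in siGDF15 replicate 2 and at least 67569576 in the other 5 libraries. GDF15 was at 22.4, 19.3 and 23.1 FPKM in NC and at 10.8, 10.5 and 10.7 FPKM in siGDF15, with a log2 fold change of -0.92 (edgeR, adjusted p = 2.4e-05). Mitochondrially encoded genes held 6.39 to 6.78% of counts in NC and 8.53 to 9.17% in siGDF15, and the part of this shift in the results was not tested.

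All 10 mitotic kinesin genes were lower in siGDF15 than in NC (adjusted p between 4.7e-07 and 7.5e-06, edgeR's quasi-likelihood test with Benjamini-Hochberg adjustment). Among all 11867 genes tested, 31.4% were lower at an adjusted p under 0.05 (3721 genes, with 3565 higher). With counts scaled by their total alone these were 4679 lower and 2701 higher, and the kinesin calls were the same 10. The log2 fold changes of the 10 genes lay between -1.95 for KIF18B and -1.39 for KIF18A, with a median of -1.63, where the median over all genes tested was 0.003. All 10 also met the study's threshold for downregulated genes, a log2 fold change of -1 or less, which 4.78% of the genes tested met. In FPKM, the 3 siGDF15 libraries of each of the 10 genes lay under the 3 NC libraries with no overlap, which held for 42.8% of the genes tested. A log2 fold change at or below that of KIF18A, the least changed of the 10, was found in 284 genes (2.39% of those tested).

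Together the 10 genes held 1036.2, 1021.7 and 1039.8 CPM (counts scaled to equal library totals) in NC replicates 1 to 3. In siGDF15 replicates 1 to 3 they held 336.1, 300.2 and 277.8 CPM. In this sum the NC libraries were close to each other, and siGDF15 replicate 1 was the highest of its group. In 9 of the 10 genes siGDF15 replicate 1 had the highest FPKM of the 3 siGDF15 libraries, and in 9 siGDF15 replicate 3 had the lowest. The same library, replicate 1, was the highest of the 3 in 67.4% of 567 downregulated genes and in 40.5% of all genes tested. These 567 genes had an adjusted p under 0.05 and a log2 fold change of -1 or less in the test used here. The study itself reported a larger number of downregulated genes. In bulk RNA, fewer cells in G2 and M phase and less kinesin RNA per cell cannot be told apart.

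**Figure D1:**
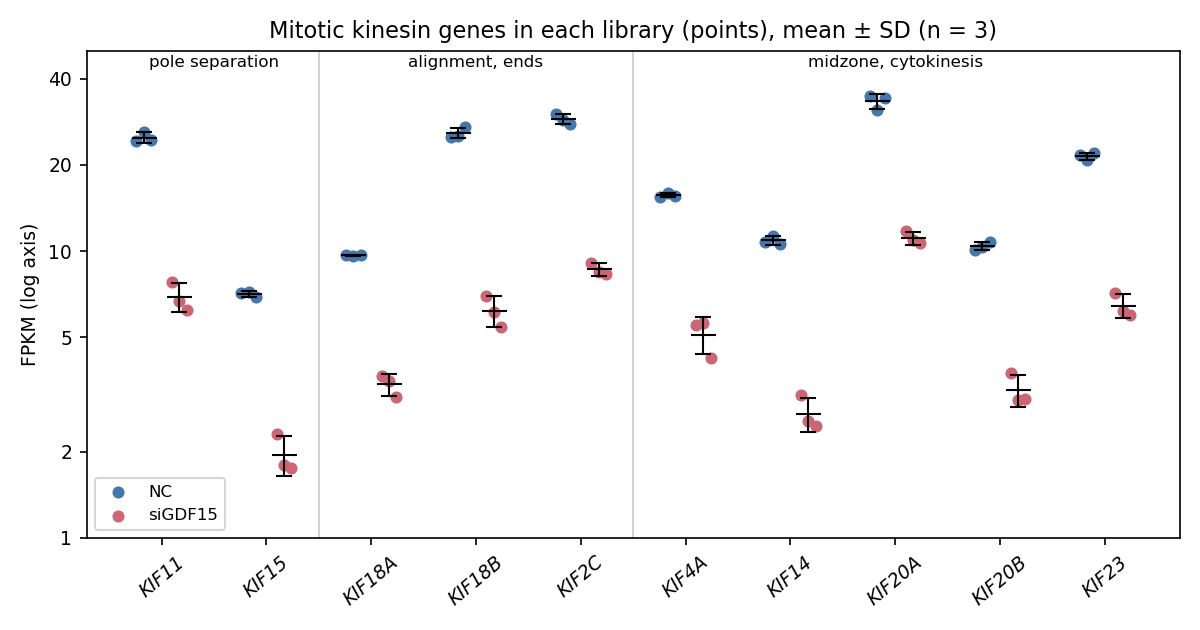
FPKM of the 10 mitotic kinesin genes in each library, on a log axis. Blue points are the 3 NC libraries, red points the 3 siGDF15 libraries, and black bars the mean ± SD. Every red point lies below every blue point of the same gene.

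The motors of spindle pole separation are KIF11 and KIF15. KIF11 (Eg5), a kinesin-5 that slides antiparallel microtubules apart and is the target of antimitotic inhibitors such as monastrol, is encoded by ENSG00000138160 at chr10:92574105-92655393 on the plus strand of GRCh38. It was expressed at 24.2, 26.1 and 24.4 FPKM in NC and at 7.80, 6.70 and 6.25 FPKM in siGDF15. The siGDF15 libraries were all low, and their mean of 6.92 ± 0.799 FPKM (SD, n = 3) was 27.8% of the NC mean of 24.9 ± 1.04 FPKM. The log2 fold change of KIF11 was -1.74 with standard error 0.080 (edgeR, adjusted p = 1.0e-06).

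KIF15 (Hklp2), a kinesin-12 that holds the bipolar spindle and can take over when KIF11 is inhibited, lies at chr3:44761721-44853261 (ENSG00000163808) on the plus strand. Its levels were 7.13, 7.22 and 6.92 FPKM in NC and 2.31, 1.80 and 1.75 FPKM in siGDF15. It was the lowest of the 10 genes in both groups, and siGDF15 replicate 1 stood above the other siGDF15 libraries. The log2 fold change of KIF15 was -1.75 with standard error 0.10 (edgeR, adjusted p = 3.1e-06), against -1.74 for KIF11. KIF11 was 3.39, 3.61 and 3.52 times as high as KIF15 in NC and 3.38, 3.73 and 3.57 times as high in siGDF15, on the FPKM scale. The log2 ratio of this pair differed by 0.02 between the groups, and the groups overlapped (two-sided exact permutation test, p = 0.80, adjusted p = 0.80 over 6 pairs).

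KIF18A, KIF18B and KIF2C act at microtubule ends. KIF18A, a kinesin-8 that gathers at the plus ends of kinetochore microtubules and damps the movements of chromosomes at the equator, lies at chr11:28020619-28108156 (ENSG00000121621) on the minus strand. It was expressed at 9.67, 9.59 and 9.71 FPKM in NC and at 3.68, 3.53 and 3.09 FPKM in siGDF15. Its NC libraries differed by little (SD 0.0582 FPKM, n = 3), and its groups did not overlap. The log2 fold change of KIF18A was -1.39 with standard error 0.076 (edgeR, adjusted p = 2.3e-06), the smallest change among the 10.

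KIF18B, the other kinesin-8, shortens the astral microtubules together with KIF2C and lies at chr17:44924709-44947773 (ENSG00000186185) on the minus strand. Its levels were 25.0, 25.3 and 27.0 FPKM in NC and 7.00, 6.16 and 5.44 FPKM in siGDF15. All 3 siGDF15 libraries were low, and their mean of 6.20 ± 0.782 FPKM (SD, n = 3) was 24.1% of that in NC, the lowest share among the 10 genes. The log2 fold change of KIF18B was -1.95 with standard error 0.090 (edgeR, adjusted p = 1.0e-06). The gene of the microRNA MIR6783 lies within KIF18B on the same strand, and reads from these genes cannot be told apart by strand.

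The 2 kinesin-8 genes changed by unequal amounts. The FPKM ratio of KIF18A to KIF18B was 0.387, 0.379 and 0.360 in NC and 0.526, 0.573 and 0.568 in siGDF15. Every siGDF15 library was above every NC library, and on the log2 scale the ratio was higher by 0.57 in siGDF15 (SD 0.054 in NC and 0.068 in siGDF15, n = 3 each). The two-sided exact permutation test gave p = 0.10 and adjusted p = 0.30 over 6 pairs. A lower p than 0.10 is not possible in this design. The difference was between 0.54 and 0.60 with any 1 library left out.

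KIF2C (MCAK), a kinesin-13 that does not walk but takes microtubule ends apart and helps to correct faulty attachments of kinetochores, lies at chr1:44739818-44767767 (ENSG00000142945) on the plus strand. It was expressed at 30.1, 28.7 and 27.8 FPKM in NC and at 9.13, 8.48 and 8.30 FPKM in siGDF15. It was second in level to KIF20A in both groups, and no library of the 2 groups overlapped. Its log2 fold change of -1.63 had the smallest standard error of the 10 genes (0.057) and the smallest adjusted p (4.7e-07 from edgeR).

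The remaining 5 genes encode motors of the spindle midzone and of cytokinesis. KIF4A, a chromokinesin that acts with PRC1 at the midzone and limits the length of midzone microtubules, lies at chrX:70290104-70420886 (ENSG00000090889) on the plus strand. Its levels were 15.5, 16.0 and 15.6 FPKM in NC and 5.51, 5.60 and 4.25 FPKM in siGDF15. Here siGDF15 replicate 3 was low and the other siGDF15 libraries were close, and replicate 2 was the highest, where replicate 1 was in the other 9 genes. KIF4A had a log2 fold change of -1.51 with standard error 0.10 (edgeR, adjusted p = 7.5e-06), which was -1.39 without siGDF15 replicate 3. KIF4B, a nearly identical intronless copy of KIF4A on chromosome 5, was at or below 0.0933 FPKM in every library. How reads shared by the copies were split is not given in the sources used here. PDZD11 overlaps KIF4A on the opposite strand, with means of 5.45 FPKM in NC and 5.14 FPKM in siGDF15. The part of this overlap in the values of KIF4A was not tested.

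KIF14, a kinesin-3 that binds PRC1 and citron kinase (CIT) at the midbody, lies at chr1:200551497-200620751 (ENSG00000118193) on the minus strand. It was expressed at 10.8, 11.3 and 10.6 FPKM in NC and at 3.14, 2.55 and 2.45 FPKM in siGDF15. The siGDF15 mean of 2.71 ± 0.371 FPKM (SD, n = 3) was 24.8% of that in NC. After KIF18B it had the largest change, with a log2 fold change of -1.90 with standard error 0.092 (edgeR, adjusted p = 1.3e-06).

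KIF20A (MKLP2), a kinesin-6 that carries the chromosomal passenger complex from the chromosomes to the midzone, lies at chr5:138178719-138187723 (ENSG00000112984) on the plus strand. Its levels were the highest of the 10 genes, at 34.9, 31.1 and 34.3 FPKM in NC and at 11.8, 10.9 and 10.7 FPKM in siGDF15. The groups were well apart, and the log2 fold change was -1.48 with standard error 0.065 (edgeR, adjusted p = 8.7e-07). CDC23 and BRD8 overlap KIF20A on the opposite strand, with means of 11.6 and 9.80 FPKM in NC and 9.71 and 5.67 FPKM in siGDF15. The libraries kept strand, but whether the quantification used it is not given in the sources used here.

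KIF20B (MPP1), another kinesin-6 with a part in the completion of cytokinesis, lies at chr10:89701590-89774939 (ENSG00000138182) on the plus strand. It was expressed at 10.1, 10.3 and 10.8 FPKM in NC and at 3.77, 3.02 and 3.05 FPKM in siGDF15. Replicate 1 was the high library in siGDF15, and KIF20B had a log2 fold change of -1.56 with standard error 0.088 (edgeR, adjusted p = 2.7e-06). The FPKM ratio of KIF20A to KIF20B lay between 3.02 and 3.45 in NC and between 3.14 and 3.62 in siGDF15, so the groups overlapped. On the log2 scale it differed by 0.09 (two-sided exact permutation test, p = 0.40, adjusted p = 0.48 over 6 pairs).

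KIF23 (MKLP1), the kinesin-6 that forms the centralspindlin complex with RACGAP1, lies at chr15:69414246-69448427 (ENSG00000137807) on the plus strand. Its levels were 21.6, 20.8 and 22.0 FPKM in NC and 7.15, 6.21 and 6.01 FPKM in siGDF15. No library overlapped between the groups, and the log2 fold change was -1.62 with standard error 0.069 (edgeR, adjusted p = 8.1e-07). KIF23 and its partner RACGAP1 changed by similar amounts, with an FPKM ratio of 0.564 to 0.609 in NC and 0.592 to 0.644 in siGDF15. The log2 ratio differed by 0.05 (two-sided exact permutation test, p = 0.40, adjusted p = 0.48 over 6 pairs).

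On the FPKM scale, which accounts for transcript length, the order of the levels in NC was KIF20A, KIF2C, KIF18B, KIF11, KIF23, KIF4A, KIF14, KIF20B, KIF18A and KIF15. Only 2 pairs of neighbours in this order, KIF18B with KIF11 and KIF14 with KIF20B, overlapped in their ranges over the libraries. In siGDF15 the order was KIF20A, KIF2C, KIF11, KIF23, KIF18B, KIF4A, KIF18A, KIF20B, KIF14 and KIF15. KIF18B and KIF14 stood lower in it than in NC, and the ranges of KIF11 and KIF23, of KIF23 and KIF18B, of KIF18B and KIF4A, of KIF18A and KIF20B and of KIF20B and KIF14 overlapped. The highest level was 4.71 times the lowest in NC and 5.71 times in siGDF15. Over the 10 genes the level in NC and the log2 fold change had a Spearman's rho of -0.04, a description across genes measured in the same libraries.

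Messages of many G2 and M phase genes are controlled through a promoter element called CHR, a known binding site of the MuvB core of the DREAM and MYBL2-FOXM1 complexes, often with CCAAT boxes upstream that bind NF-Y. As the 10 genes changed together, their promoters were searched in RefSeq windows (GRCh38.p14) of 250 bases before to 50 after the start of each gene, and all 10 were matched by symbol. Both strands were searched for the CHR letters TTTGAA and TTTAAA and for CCAAT. A CHR match was present in 10 of 10 windows, and in 24.0% of the 35116 windows of the same table, which lists some genes more than once and is not complete. TTTGAA alone was present in 8 of 10 and in 15.2% of all windows. CCAAT was present in 8 of 10 and in 34.6% of all windows, and both motifs in 8 of 10 and in 9.27% of all windows. KIF15 and KIF2C held no CCAAT in this window.

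The CHR match nearest to the start began between base -55 (KIF23) and base 25 (KIF20B), counted from 1 at the start of the gene and backwards from -1 before it. A CHR match that began within this stretch, which was set after the positions were seen, was present in 6.81% of all windows. In KIF11, KIF14, KIF4A and KIF20A the nearest CCAAT match began 25, 23, 24 and 26 bases before the CHR match. In KIF18A and KIF18B the distance was 35 and 34 bases, in KIF23 it was 9 bases and in KIF20B 122 bases, so the spacing varied among the 8 genes with both motifs. A match is a description of the letters and not of a bound site.

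The stretches around these matches are shown for the genes with a CCAAT at 23 to 35 bases from the CHR match, and for KIF2C as a gene without one. They are written 5′ to 3′ on the strand of the gene, with CHR and CCAAT matches in capitals (TTCAAA and ATTGG are the same motifs on the opposite strand). The RefSeq starts of KIF11, KIF15, KIF20A, KIF23 and KIF2C lie inside the gene spans that the table gives.
KIF11, chr10:92593057-92593116, plus strand: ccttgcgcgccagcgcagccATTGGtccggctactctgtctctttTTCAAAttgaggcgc
KIF14, chr1:200620736-200620795, minus strand: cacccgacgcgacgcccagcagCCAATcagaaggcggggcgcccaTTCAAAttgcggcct
KIF4A, chrX:70290025-70290084, plus strand: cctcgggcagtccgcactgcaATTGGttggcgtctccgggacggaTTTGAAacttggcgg
KIF20A, chr5:138179026-138179085, plus strand: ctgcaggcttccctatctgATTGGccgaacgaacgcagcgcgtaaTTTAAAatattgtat
KIF18A, chr11:28108152-28108211, minus strand: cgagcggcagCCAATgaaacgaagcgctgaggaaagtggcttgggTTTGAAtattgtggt
KIF18B, chr17:44947757-44947816, minus strand: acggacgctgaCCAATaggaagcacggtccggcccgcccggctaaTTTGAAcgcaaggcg
KIF2C, chr1:44739789-44739848, plus strand: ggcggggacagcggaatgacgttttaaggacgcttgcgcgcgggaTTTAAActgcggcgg
The windows of KIF18A and KIF18B, whose change in level was the smallest and the largest of the 10, both held TTTGAA with a CCAAT upstream.

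**Figure D2:**
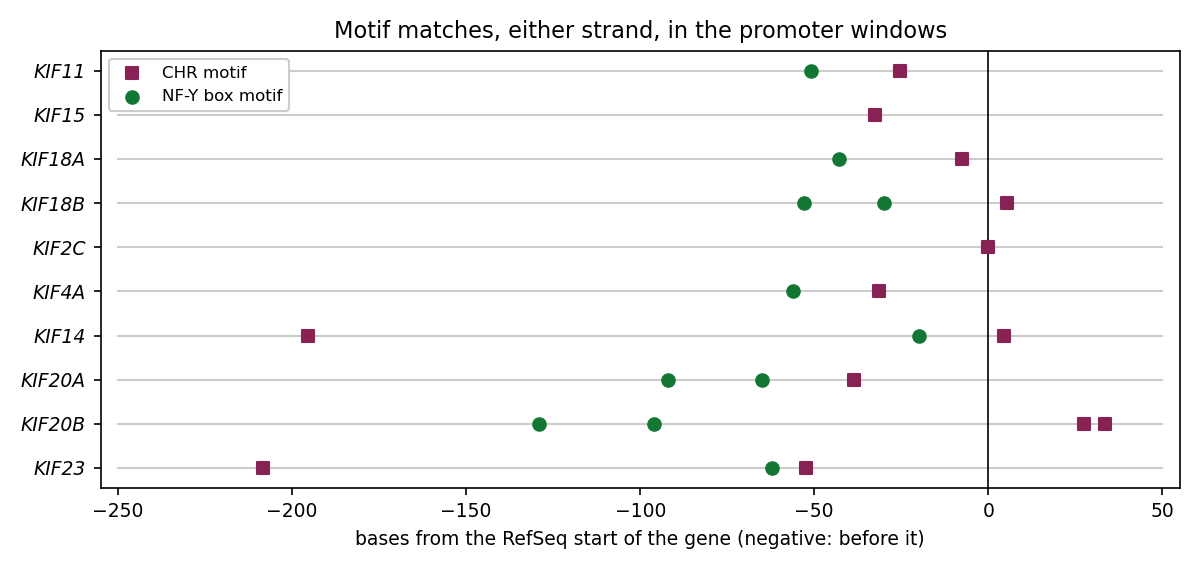
Position of motif matches in the promoter windows of the 10 genes, in bases from the RefSeq start. Purple squares are CHR motif matches and green circles are CCAAT matches (the NF-Y box motif), on either strand. Each gene has a square between base -55 and base 36, and KIF15 and KIF2C have no circle.

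Other kinesins of mitosis were compared next. Of 6 such genes on a list, KIFC1, KIF22, CENPE and KIF2A were tested, KIF4B was below the filter, and KIF2B is not listed in the table. KIFC1 (HSET), a minus-end motor that focuses spindle poles, fell from 39.6 ± 0.773 to 10.5 ± 0.597 FPKM (SD, n = 3), with a log2 fold change of -1.82 (adjusted p = 3.5e-07 from edgeR). KIF22 (Kid), a chromokinesin, had a log2 fold change of -1.53 (adjusted p = 4.9e-07 from edgeR), and CENPE, a kinetochore motor, one of -1.66 (adjusted p = 5.9e-06 from edgeR). KIF2A, a kinesin-13 related to KIF2C that also acts outside mitosis, had 6.32 ± 0.289 FPKM (NC) and 5.52 ± 0.377 FPKM (siGDF15; SD, n = 3). Its log2 fold change of -0.09 did not pass the test (adjusted p = 0.21 from edgeR), and with counts scaled by their total alone it was -0.19 with adjusted p = 0.025.

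The list of partners held 20 genes that bind, recruit or regulate the mitotic kinesins, and all 20 were tested. All 20 were lower at an adjusted p under 0.05, beside 31.4% of all genes tested, and 16 had a log2 fold change of -1 or less, beside 4.78%. The median was -1.63, as in the kinesins. PRC1, the microtubule bundler that recruits KIF4A and KIF14, fell from 33.6 ± 1.34 to 8.59 ± 1.83 FPKM (SD, n = 3), with a log2 fold change of -1.86 (adjusted p = 9.9e-06 from edgeR). TPX2, which recruits KIF11 and KIF15 to the spindle, had a log2 fold change of -1.64 and RACGAP1 one of -1.68. SGO2, which recruits KIF2C to centromeres, had -1.92, and MKI67, whose protein binds KIF15, had -1.74. AURKB, the kinase of the passenger complex that KIF20A carries, had -1.82.

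The partners with a log2 fold change above -1 included ECT2 (-0.95), KIFBP and MAPRE1. MAPRE1 (EB1), a microtubule plus-end protein that binds KIF18B, had a log2 fold change of -0.27 (adjusted p = 0.0024 from edgeR). KIFBP, which binds the motor domains of KIF15 and KIF18A, had -0.34 (adjusted p = 7.4e-04 from edgeR). The count of 20 lower partners was 19 without NC replicate 2, without any 1 siGDF15 library or with the replicate number as a block.

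The ratio of KIF4A to PRC1 was higher in siGDF15, as KIF4A changed less than PRC1. It was 0.483, 0.468 and 0.452 in NC and 0.533, 0.641 and 0.636 in siGDF15 on the FPKM scale. The groups did not overlap, although siGDF15 replicate 1 lay nearer to NC than to the other siGDF15 libraries. The log2 ratio was higher by 0.36 in siGDF15 (two-sided exact permutation test, p = 0.10, adjusted p = 0.30 over 6 pairs). The ratio of KIF15 to TPX2 overlapped between the groups, with a log2 difference of -0.12 (two-sided exact permutation test, p = 0.30, adjusted p = 0.48 over 6 pairs).

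**Figure D3:**
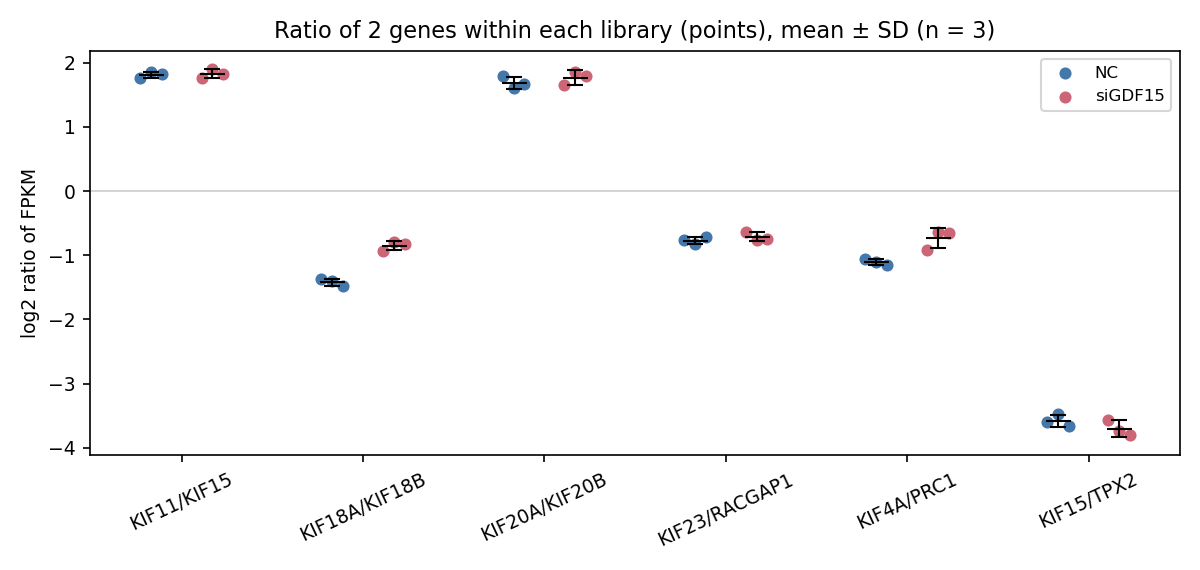
Log2 ratio of the FPKM of 2 genes within each library for the 6 pairs compared. Blue points are NC libraries, red points siGDF15 libraries, and black bars the mean ± SD. KIF18A/KIF18B and KIF4A/PRC1 are higher in all 3 siGDF15 libraries, and the other 4 pairs overlap between the groups.

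Kinesins of cargo transport and other roles did not move together. Of 28 such genes 16 were tested, of which 7 were lower and 5 higher at an adjusted p under 0.05, beside 31.4% lower and 30.0% higher among all genes tested. Their median log2 fold change was -0.04. Among those that fell, 2 reached a log2 fold change of -1 or less. KIF24, which takes part in centriole and cilium control, fell from 2.85 ± 0.0891 to 0.821 ± 0.125 FPKM (SD, n = 3), with a log2 fold change of -1.69 (adjusted p = 9.0e-06 from edgeR). KIF21B, a kinesin-4 studied mostly in neurons, had -1.07 (edgeR, adjusted p = 2.0e-04), which was -0.91 without NC replicate 2. With limma on log2(FPKM + 1), a scale that compresses low values, KIF24 had -1.08 and KIF21B -0.58. The largest rise was that of KIFC3, a minus-end motor, with a log2 fold change of 0.60 (adjusted p = 3.6e-04 from edgeR). KIF5B, the ubiquitous conventional kinesin heavy chain, fell from 36.7 ± 0.382 to 25.6 ± 1.62 FPKM (SD, n = 3), with a log2 fold change of -0.42 (adjusted p = 1.8e-04 from edgeR). The count of 5 higher genes was 3 with counts scaled by their total alone and 2 with limma on log2 FPKM.

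**Figure D4:**
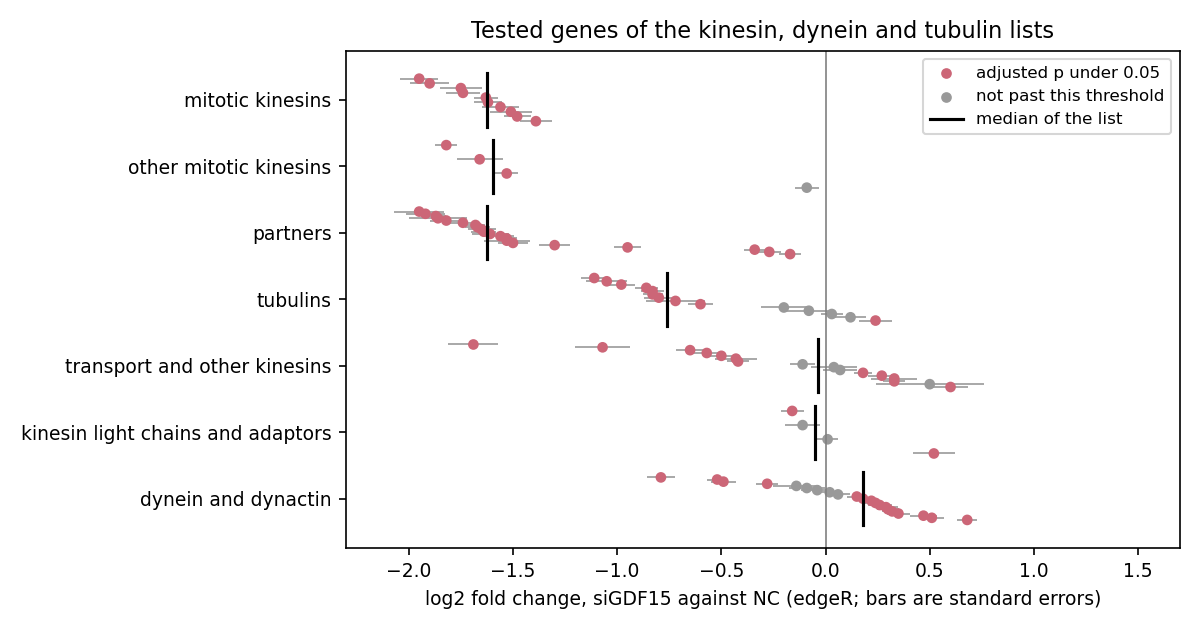
Log2 fold change of siGDF15 against NC for the tested genes of 7 lists, with standard errors from edgeR as bars. Red points passed an adjusted p of 0.05, grey points did not, and black lines are list medians. The mitotic kinesins lie between -1.95 and -1.39, and the transport kinesins lie on both sides of 0.

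The genes whose pattern over the 6 libraries was most like the mean of the 10 kinesins were SGO2, ABCB10, TIMELESS, TROAP and CENPU. Their Pearson correlation with that mean, on log2 CPM, was 0.9999 for SGO2 and 0.9998 for each of the other 4. Such values are common here because the libraries form 2 groups, and 641 of the tested genes outside the 10 had a correlation of at least 0.99. The log2 fold changes of the 5 ranged from -1.92 for SGO2 to -0.80 for ABCB10, a mitochondrial transporter gene, since correlation does not depend on the size of the change.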

How the data were processed

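Poly(A) RNA of 6 libraries was sequenced as read pairs of 150 bases. Per the labels, the authors used fastp, HISAT2, StringTie and edgeR with GRCh38, and the versions, options and annotation release are not given in the sources used here. The deposited FPKM values were scaled by the authors to transcript length and mapped fragments. The deposited expected counts are whole numbers without normalization. Their most frequent value from 1 to 20 was 4, so they are not a plain tally of reads. Counts summed to 51738814 to 68025163 per library. The study states a lower average number of reads per sample, so these sums are not taken as sequencing depth. With counts divided by 4, pairs of NC libraries had a chi-square per degree of freedom of 7.74 to 17.5. Pairs of siGDF15 libraries had 3.28 to 4.58. Both ranges are more than sampling noise if 4 is the right divisor, which was not tested. Counts of genes with a mean of at least 1 FPKM were tested with edgeR 4.0.16 (TMM, quasi-likelihood test, two-sided, Benjamini-Hochberg adjustment over all 11867 genes tested) in R 4.3.3, after a check on simulated data. FPKM has no TMM scaling, so falls are slightly larger in FPKM than in edgeR. Standard errors came from the fold change and its F statistic. Ratios of 2 genes within a library were tested with exact permutation tests (scipy 1.17.1) for 6 pairs. Alternatives used DESeq2 1.42.0 and limma 3.58.1. All 10 genes are named. Tested genes of the lists of other mitotic kinesins, partners and tubulins could be named. Of transport kinesins, light chains, dynein and dynactin, those past both thresholds and the 2 of largest fold in each direction were eligible, and KIF5B, DYNC1I2 and DCTN3 were added after their values were seen. The members and lists were chosen with earlier results of these data known. Some genes of the lists are not reported by name here.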

Additional observations from a re-analysis of the deposited data

How the results depend on the processing

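For each of the 10 kinesins the direction and the call at an adjusted p under 0.05 were the same under 15 alternatives. These were DESeq2, DESeq2 size factors, total counts alone, a mean of at least 0.1 FPKM or no filter, the replicate block, counts divided by 4, limma with a pseudocount of 1 or 0.1, and each of the 6 libraries left out. The count of 10 lower genes and of 10 with a log2 fold change of -1 or less was unchanged in all 15, and with 1 library left out the median lay between -1.68 and -1.59. The largest move of a single gene was that of KIF15, to -1.46 with limma on log2(FPKM + 1). Without siGDF15 replicate 1 the median was -1.68. Deviations from the group mean correlated at 0.028, -0.075 and 0.046 for libraries of the same number, and at -0.135 to 0.089 for other pairs. These values cannot show whether the replicate numbers pair the libraries. With the replicate block the median was -1.63 and all 10 genes were still called, while KLC2 and TUBB2A were not. The block also left 19 of the 20 partners lower and 11 instead of 12 dynein and dynactin genes higher. The log2 ratio changes moved by less than the SD between replicates of siGDF15 under 9 alternatives. That of KIF11/KIF15 lay on both sides of 0, at -0.02 on log2(FPKM + 0.1) and from -0.01 to 0.06 with 1 library left out, and that of KIF4A/PRC1 lay between 0.32 and 0.45 with 1 library left out. With 3 libraries a group, the exact tests cannot reach p under 0.10. Among transport kinesins, 5 were higher, but 3 with total counts alone and 2 with limma or no filter. Genes with a log2 fold change of -1 or less numbered 567, and 852 with a mean of at least 0.1 FPKM or 859 without a filter.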

Other observations

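Tubulins, the subunits of the tracks on which kinesins walk, moved less than the mitotic kinesins. Of 16 genes 14 were tested, 9 were lower and 1 higher at an adjusted p under 0.05 (edgeR), beside 31.4% lower and 30.0% higher among all genes tested. The median log2 fold change was -0.76. TUBA1B fell from 587.2 ± 41.6 to 253.3 ± 10.9 FPKM (SD, n = 3), with a log2 fold change of -1.11 (adjusted p = 2.8e-06 from edgeR). TUBE1, the ε-tubulin of centrioles, had a log2 fold change of -1.05 (adjusted p = 3.8e-05 from edgeR). TUBB2A had 0.24 (adjusted p = 0.029 from edgeR), a call that was lost without NC replicate 1 or 2 or siGDF15 replicate 2 or 3, with limma, with total counts alone and with a lower or no filter (adjusted p up to 0.15). Tubulin genes are similar in sequence, and their levels depend on how shared reads were split.

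Genes of dynein and dynactin, the minus-end motor complex and its activator, moved to both sides. Of 21 tested genes 12 were higher and 4 lower at an adjusted p under 0.05, beside 30.0% higher and 31.4% lower among all genes tested, with a median log2 fold change of 0.18. With counts scaled by their total alone 8 were higher and 4 lower, and the median was 0.08, while DYNC1I2 (0.02) and DCTN3 (0.06), neither past the test, changed sign. DYNC1H1, the dynein heavy chain, rose by 0.51 on the log2 scale, with 25.8 ± 1.82 FPKM for NC and 34.2 ± 0.376 FPKM for siGDF15 (SD, n = 3; adjusted p = 1.1e-04 from edgeR). ACTR1B of dynactin had 0.68 (adjusted p = 8.9e-06 from edgeR). NDE1, a dynein regulator at kinetochores and centrosomes, had -0.79 (adjusted p = 2.5e-05 from edgeR). Of 4 tested kinesin light chain and adaptor genes, KLC4 had a log2 fold change of 0.52 (adjusted p = 0.0026 from edgeR). KLC2 had -0.16 (adjusted p = 0.032 from edgeR), which was lost without any 1 library other than NC replicate 1, up to an adjusted p of 0.10.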
